A study of Mus musculus with 16 samples.

Results

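The transcription factors that hold mouse embryonic stem cells (mESC) in the naive state are described here through their own transcripts, as recovered with the Sox2 protein. The members are 10 genes taken by name: Pou5f1, Nanog, Klf2, Klf4, Klf5, Esrrb, Tfcp2l1, Zfp42, Prdm14 and Tbx3. All 10 are among the 22936 genes tested, of 53379 genes in the count table. The cells were male mESC, and their genotype and strain are not given in the sources used here. They were grown on gelatin in medium with fetal bovine serum, LIF at 1000 U/mL, the MEK inhibitor PD0325901 at 1 uM and the GSK3 inhibitor CHIR99021 at 3 uM, so every group shares these agents. Protein and RNA were joined either with UV light (UV-RIP), which links protein to RNA that it touches, or with formaldehyde (fRIP), which also links proteins to each other. Sox2 was immunoprecipitated (IP) from the lysate of each plate, and a portion of the lysate taken before the antibody was added served as the input. Ribosomal RNA was depleted before sequencing, and no library from a control antibody was analysed here, so the input is the background for every IP value. There were 4 groups of 4 libraries, the UV-RIP IP, the UV-RIP input, the fRIP IP and the fRIP input, with replicates numbered from 3 to 6 in each. The crosslinkers were applied to separate plates, so crosslinker and plate cannot be told apart.

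Naive pluripotency rests on a small set of transcription factors that bind each other's genes. Oct4, the product of Pou5f1, binds DNA side by side with Sox2, and Nanog joins them at many of the same enhancers. LIF acts through STAT3, which turns on Klf4 and Tfcp2l1. Inhibition of GSK3 stabilizes beta-catenin, which relieves repression by Tcf7l1 of genes such as Esrrb. Inhibition of MEK removes the signal that drives cells out of the naive state and favours Nanog and Klf2. Klf5 shares targets with Klf2 and Klf4, Tbx3 is a T-box factor downstream of PI3K signalling, Prdm14 represses FGF receptor and DNA methyltransferase genes, and Zfp42, also called Rex1, is a zinc finger gene widely used as a marker of the naive state. Sox2 is a partner of Oct4 and was the protein that was pulled down.

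The libraries held between 12456298 and 21211537 UMIs (unique molecular identifiers, each counting an RNA fragment once) on gene bodies, introns included. The members together took 0.208% to 0.421% of them, from 469 UMIs of Prdm14 in the UV-RIP input of replicate 4 to 31907 UMIs of Tfcp2l1 in the fRIP IP of replicate 4. The cells carried the defining genes of mESC. Early germ layer, fibroblast and 2-cell-like markers, each list summed on its own, reached at most 8.91 CPM (UMIs of a gene in every 1000000 UMIs of the library) in any library. Of 8 primitive endoderm and 7 trophoblast markers, Lama1 and Tfap2c were the genes at 10 CPM or more. Summed over the list, the primitive endoderm markers had 76.7 to 87.3 CPM in the UV-RIP input and 103 to 113 CPM in its IP, and 94.2 to 121 CPM in the fRIP input and 141 to 146 CPM in its IP, and the trophoblast markers lay between 47.3 and 70.6 CPM. Sox2 itself is listed at 0 UMIs in all 16 libraries. Sox2 lies wholly inside Sox2ot on the same strand, and all 321 protein-coding genes that lie inside another protein-coding gene on the same strand are listed at 0 too, so the count of Sox2 says nothing of its level. Gm26917 took 18.35% to 22.34% of the UMIs in the UV-RIP IP and 12.03% to 12.29% in the UV-RIP input. In fRIP it took 5.441% to 12.43% in the IP and 5.456% to 8.494% in the input, both highest in replicate 5. With total UMIs as library size, the fitted log2 ratio of IP to input in UV-RIP had a median over all tested genes of -0.17. Without Gm26917 and Gm42418 in the library sizes this median was -0.019. With edgeR's TMM factors (a scaling that centres most genes) it was 0.0052, a shift of all genes together.

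Every member was detected in every library, and the order of their levels in the inputs was the same under both crosslinkers when CPM was divided by gene body length in kb. Pou5f1 was first, with 34.7 ± 1.25 CPM per kb in the UV-RIP input and 80.4 ± 19.4 in the fRIP input (SD, n = 4 each). Nanog was second at 27.8 ± 1.35 CPM per kb in the UV-RIP input (SD, n = 4), and it was not separated from Klf2 at 27.7 ± 2.46 (SD, n = 4) by more than the spread. In the fRIP input Nanog had 66.6 ± 15.8 CPM per kb (SD, n = 4) and was not separated from Pou5f1. Klf4, Tfcp2l1, Tbx3, Klf5, Zfp42 and Esrrb followed in this order, and each mean exceeded the next by more than the larger of the SDs. Prdm14 was last, with 3.05 ± 0.235 CPM per kb in the UV-RIP input and 3.20 ± 0.154 in the fRIP input (SD, n = 4 each). The order depends on the length used, because reads in introns were counted. Esrrb has 96.2% of its body in introns, and per kb of merged exons it was first in the UV-RIP input at 114 ± 1.18 CPM per kb (SD, n = 4) and the fourth in the fRIP input. These are bulk libraries, in which fewer expressing cells and less RNA per cell cannot be told apart.

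**Figure D1:**
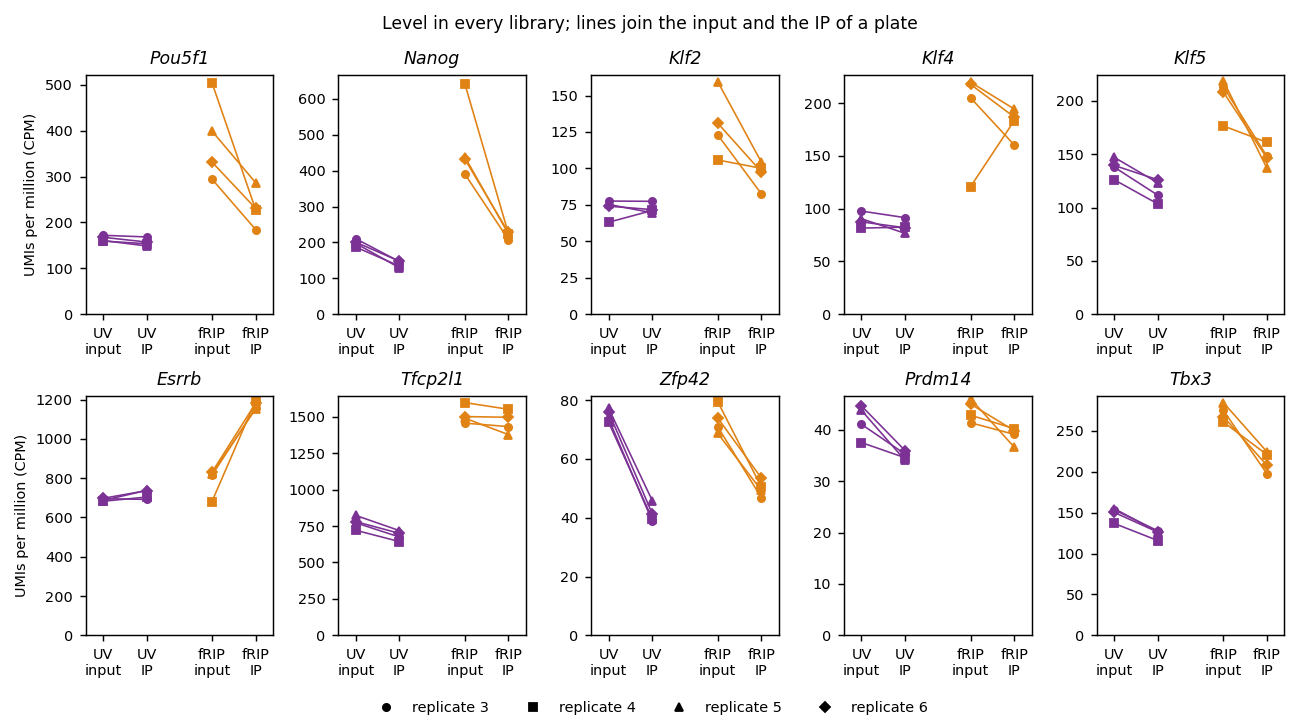
Level of each of the 10 genes (y axis, CPM, starting at 0 with a range of its own in each panel) in the input and the IP of UV-RIP (purple) and fRIP (orange), with a line for each plate and a marker shape for each replicate number. Nanog, Zfp42, Pou5f1, Klf5, Tfcp2l1, Prdm14 and Tbx3 slope down in all 8 pairs, Esrrb slopes up in the 4 fRIP pairs, and the square marking replicate 4 stands apart in the fRIP input of Nanog, Klf4 and Esrrb.

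In UV-RIP, none of the 10 members was higher in the IP and 6 were lower by edgeR's quasi-likelihood test at an adjusted p below 0.05: Zfp42, Nanog, Tbx3, Prdm14, Klf5 and Tfcp2l1. Of all genes tested, 29% passed as lower and 6.6% as higher. At an unadjusted p below 0.05 there were also 0 members higher, and DESeq2 with total UMIs called 0 higher and 6 lower. The members had a median log2 ratio of -0.21, beside -0.17 for all genes tested, so the members as a list sat near the bulk of genes. Zfp42 alone was depleted by more than 1.5-fold, a call that 5.53% of all genes tested reached, and no member was enriched by that fold, which 0.68% reached. Nanog and Zfp42 were lower under every scaling run, while under TMM factors 3 members (Esrrb, Klf2 and Pou5f1) passed as higher and these 2 alone as lower. All genes moved with that scaling, with 3724 of 22936 genes higher and 3400 lower under TMM factors, beside 1514 and 6640 with total UMIs.

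The gene Zfp42 (ENSMUSG00000051176.6) spans bases 43295063 to 43306980 of chromosome 8, minus strand (GRCm38, as for all coordinates here). In the UV-RIP input it had 73.7, 72.5, 77.2 and 75.9 CPM in replicates 3 to 6, and in the IP 38.8, 39.7, 45.8 and 41.4 CPM. The groups did not overlap, and the IP was lower in 4 of 4 pairs. Zfp42 had a log2 ratio of -0.85 (standard error 0.05, adjusted p = 1.06e-64, edgeR's quasi-likelihood test), a 1.81-fold reduction and 0.68 below the median of all genes. The size of this p depends on the fit, and a joint fit over all 16 libraries gave -0.85 with an adjusted p of 2.36e-10 (edgeR). In fRIP the input held 71.0, 79.5, 68.7 and 74.0 CPM and the IP 46.9, 50.5, 49.4 and 53.5 CPM. Again the groups did not overlap, with a log2 ratio of -0.55 (standard error 0.08, adjusted p = 4.24e-06, edgeR). Zfp42 was the member closest to the same level in the inputs of both crosslinkers, with 74.8 ± 2.15 CPM in UV-RIP and 73.3 ± 4.66 in fRIP (SD, n = 4 each).

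Nanog (ENSMUSG00000012396.12) lies on the plus strand of chromosome 6 from 122707489 to 122714633. Its UV-RIP input held 210, 187, 197 and 201 CPM, and its IP 147, 134, 129 and 148 CPM, with no overlap between the groups. Nanog had a log2 ratio of -0.51 (standard error 0.04, adjusted p = 1.2e-34, edgeR), or 0.34 below the median of all genes. In the joint fit over 16 libraries its adjusted p was 5.26e-06 (edgeR). In fRIP the input had 391, 642, 439 and 432 CPM and the IP 208, 225, 224 and 228 CPM. The IP libraries lay close together, and the input of replicate 4 was far above the other inputs. This gave a log2 ratio of -1.08 (standard error 0.09, adjusted p = 1.48e-09, edgeR), the lowest of the members. Without replicate 4 it was -0.94, so the depletion did not rest on that library. The table lists 2 Nanog pseudogenes, Nanog-ps1 and Nanog-ps2, which had 3 UMIs or fewer in any library.

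Nanog and Zfp42 were the members with the lowest IP to input ratio in UV-RIP, and Esrrb was the highest member in both crosslinkers. Their promoters are shown as those of the members at both ends of the range, with the DNA motifs of Oct4 and Sox2 marked. The sequences are the 250 bases before a RefSeq start site on GRCm38.p6, a window held for 7 of the 10 members, given 5′ to 3′ on the strand of the gene, with the motif matches in capitals. The first lies at chr6:122707239-122707488 on the plus strand, the second at chr8:43307010-43307259 on the minus strand, and the third at chr12:86360867-86361116 on the plus strand.
Nanog: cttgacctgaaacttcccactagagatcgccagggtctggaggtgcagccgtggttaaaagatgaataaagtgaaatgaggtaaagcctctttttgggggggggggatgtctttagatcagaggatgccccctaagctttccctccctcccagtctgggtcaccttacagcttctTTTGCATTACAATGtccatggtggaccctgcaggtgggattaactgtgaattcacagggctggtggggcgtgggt
Zfp42: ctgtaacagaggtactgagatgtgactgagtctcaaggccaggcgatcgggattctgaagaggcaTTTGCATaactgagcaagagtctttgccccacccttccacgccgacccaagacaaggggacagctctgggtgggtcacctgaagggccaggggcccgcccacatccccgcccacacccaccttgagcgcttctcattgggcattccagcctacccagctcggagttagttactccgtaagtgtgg
Esrrb: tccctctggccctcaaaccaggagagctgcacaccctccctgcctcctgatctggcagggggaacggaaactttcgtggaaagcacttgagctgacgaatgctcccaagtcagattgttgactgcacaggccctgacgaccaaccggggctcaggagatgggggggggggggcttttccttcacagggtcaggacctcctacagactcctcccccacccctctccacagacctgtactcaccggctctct
The motifs searched on both strands were the octamer core TTTGCAT bound by Oct4, the Sox core CATTGT, and the composite TTTGCATNACAATG, in which an octamer core is followed by an inverted Sox core. The composite includes a match to each of the other motifs. The Nanog window holds the composite from 75 to 62 bases before the start site. In all 32851 RefSeq windows of this length 2 hold it, or 0.00609%, and both belong to Nanog, whose start sites lie close together. The Zfp42 window holds the octamer core from 185 to 179 bases before the start site, without the Sox core, and 4.12% of all windows hold that octamer core. The Esrrb window has no match to any of these letters, and neither has a further Esrrb window at chr12:86421394-86421643. The Sox core is in 10.7% of all windows and also in a window of Pou5f1, which did not pass in UV-RIP. Tfcp2l1, which was lower in UV-RIP, had no match, nor did Klf2 and Klf4. Of the 7 members with a window, the octamer core was thus in Nanog and Zfp42, whose UV-RIP log2 ratios were -0.51 and -0.85, and not in Tfcp2l1, Klf4, Pou5f1, Klf2 and Esrrb, with -0.18 to 0.06. In fRIP this order did not hold, since Pou5f1, without the octamer core, was at -0.70 and Zfp42 at -0.55. Klf5, Prdm14 and Tbx3, also lower in UV-RIP, had no window, and a link between motif and ratio was not tested. A match is a description of the DNA, while the libraries measured RNA, and no binding to these promoters was measured.

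Pou5f1 (ENSMUSG00000024406.16), which encodes Oct4, differed between the crosslinkers. The gene lies on the plus strand of chromosome 17 from 35506018 to 35510772. In UV-RIP the input had 172, 159, 160 and 168 CPM and the IP 168, 154, 149 and 157 CPM, and the groups overlapped. The log2 ratio of -0.07 (standard error 0.04, adjusted p = 0.18, edgeR) did not pass. It passed as lower with the GC trend removed, at -0.097 (adjusted p = 0.0235), and as higher under TMM factors, at 0.11 (adjusted p = 0.0121), and with the length trend removed, at 0.15 (adjusted p = 1.02e-05), so its direction in UV-RIP depends on the scaling. In fRIP the input had 294, 504, 399 and 331 CPM and the IP 185, 228, 287 and 230 CPM. Every IP library was below every input library, with a log2 ratio of -0.70 (standard error 0.09, adjusted p = 8.2e-07, edgeR), past the 1.5-fold limit. Without replicate 4 it was -0.56, and with the length trend removed -0.36, both still past the test but no longer past 1.5-fold. Gm19553, an antisense gene, lies wholly inside the Pou5f1 body and covers 31.0% of it. The counting kept the strands apart as far as the table shows: of 469 protein-coding genes inside another one on the opposite strand 20% are listed at 0, beside 100% of those on the same strand and 16.3% of all. Gm19553 had 9.56 CPM in the fRIP input of replicate 4 and 5.28 CPM in the fRIP IP of replicate 5, the libraries of each group in which Pou5f1 was highest, and at most 1.66 CPM in the other libraries. Its part in the Pou5f1 values was not tested.

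The Kruppel-like factors gave different values for each gene. Klf2 (ENSMUSG00000055148.7), on the plus strand of chromosome 8 from 72319033 to 72321656, had 77.6, 63.1, 75.3 and 74.1 CPM in the UV-RIP input and 77.4, 71.1, 69.6 and 71.8 CPM in the IP. The groups overlapped, and the log2 ratio was -0.00 (standard error 0.05, adjusted p = 0.989, edgeR). In fRIP its input had 123, 106, 160 and 131 CPM and its IP 82.6, 100.1, 104 and 97.7 CPM. The groups were close but did not overlap, and Klf2 fell by 0.42 on the log2 scale (standard error 0.09, adjusted p = 0.000293, edgeR). With a trend on gene length removed the value was -0.01, so this call was lost for Klf2, whose body of 2624 bases is the shortest among the members.

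Klf4 (ENSMUSG00000003032.8), a STAT3 target on the minus strand of chromosome 4 from 55527143 to 55532466, was a member whose call changed without replicate 4 in both crosslinkers. In UV-RIP it had 81.5 to 97.6 CPM in the input and 76.6 to 91.4 CPM in the IP, with a log2 ratio of -0.10 (standard error 0.04, adjusted p = 0.0554, edgeR). In fRIP the input held 205, 121, 220 and 218 CPM and the IP 160, 183, 194 and 187 CPM. The IP was lower in 3 of 4 pairs and higher in replicate 4, where the input was low. Klf4 had a log2 ratio of -0.04 (standard error 0.11, adjusted p = 0.816, edgeR), and without replicate 4 it was -0.25 and passed (adjusted p = 3.72e-06). In UV-RIP Klf4 also passed as lower without replicate 4, at -0.14 (adjusted p = 0.0128, edgeR), and with a filter of 10 UMIs in 4 libraries (adjusted p = 0.0432). With the length trend removed it passed as higher, at 0.11 (adjusted p = 0.0101, edgeR), so its direction in UV-RIP depends on the scaling.

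Klf5 (ENSMUSG00000005148.8), on the plus strand of chromosome 14 from 99298691 to 99315036, had 126 to 147 CPM in the UV-RIP input and 103 to 126 CPM in the IP, so that the groups touched. The log2 ratio was -0.25 (adjusted p = 3.53e-08, edgeR), and under TMM factors it was -0.066 and not past the test. In fRIP the input had 213, 176, 219 and 208 CPM and the IP 148, 161, 137 and 146 CPM. The groups did not overlap, and the log2 ratio was -0.46 (standard error 0.08, adjusted p = 8.11e-05, edgeR).

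Esrrb (ENSMUSG00000021255.17), the orphan nuclear receptor that acts downstream of GSK3 inhibition, was the member that rose in fRIP. It is the longest of the 10 genes and spans the plus strand of chromosome 12 from 86361117 to 86521628. In the fRIP input it had 815, 681, 823 and 831 CPM, and in the IP 1157, 1195, 1153 and 1182 CPM. Every IP library was above every input library, and the IP libraries had an SD of 20.4 CPM. Esrrb had a log2 ratio of 0.58 (standard error 0.07, adjusted p = 9.05e-07, edgeR), or 1.49-fold, just under the 1.5-fold limit. Without replicate 3, 5 or 6 it passed that limit, and without replicate 4 it was 0.50 and did not. In UV-RIP the input had 696, 683, 687 and 698 CPM and the IP 692, 704, 738 and 737 CPM, and the groups overlapped. The log2 ratio of 0.06 (standard error 0.04, adjusted p = 0.27, edgeR) did not pass with total UMIs and was 0.24 and passed under TMM factors.

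Tfcp2l1 (ENSMUSG00000026380.10), another STAT3 target, had the most UMIs of the members in fRIP. It spans the plus strand of chromosome 1 from 118627945 to 118685168. Its fRIP input had 1457, 1598, 1491 and 1502 CPM and its IP 1433, 1552, 1378 and 1497 CPM. The groups overlapped, and the log2 ratio was -0.05 (standard error 0.07, adjusted p = 0.66, edgeR). In UV-RIP, with 721 to 823 CPM in the input and 644 to 719 CPM in the IP, it fell by 0.18 on the log2 scale (standard error 0.04, adjusted p = 5.88e-06, edgeR). That value equals the median of all genes to within 0.01, and under TMM factors it was 0.0033.

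Tbx3 and Prdm14 were lower in the UV-RIP IP by the same amount, and in fRIP Tbx3 passed and Prdm14 did not. Tbx3 (ENSMUSG00000018604.18), on the plus strand of chromosome 5 from 119670669 to 119684724, had 153, 137, 155 and 150 CPM in the UV-RIP input and 128, 116, 126 and 126 CPM in the IP. In fRIP the input had 275, 261, 285 and 268 CPM and the IP 197, 221, 224 and 208 CPM. Neither crosslinker showed overlap of the groups, and the log2 ratio was -0.26 in UV-RIP (adjusted p = 2.91e-09) and -0.36 in fRIP (adjusted p = 0.00034, both edgeR). Under TMM factors the UV-RIP value was -0.081 and did not pass. An antisense gene, Tbx3os1, overlaps 5.0% of the Tbx3 body and had 26.5 to 32.4 CPM in the fRIP IP against 15.2 to 19.3 CPM in its input, so it was higher where Tbx3 was lower, and its part in the Tbx3 values was not tested. Prdm14 (ENSMUSG00000042414.7), on the minus strand of chromosome 1 from 13113457 to 13127163, had 41.1, 37.6, 43.8 and 44.7 CPM in the UV-RIP input and 35.3, 34.6, 34.1 and 36.0 CPM in the IP. The groups did not overlap, and the log2 ratio was -0.26 (adjusted p = 1.24e-05, edgeR), but under TMM factors it was -0.078 and not past the test. In fRIP Prdm14 was lower in 4 of 4 pairs, with 41.4 to 46.1 CPM in the input and 36.7 to 40.3 CPM in the IP. Its log2 ratio of -0.17 (adjusted p = 0.117, edgeR) did not pass, and without replicate 4 it was -0.20 and passed (adjusted p = 0.0108). With the length trend removed the fRIP value of Prdm14 was -0.01 (adjusted p = 0.907, edgeR).

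**Figure D2:**
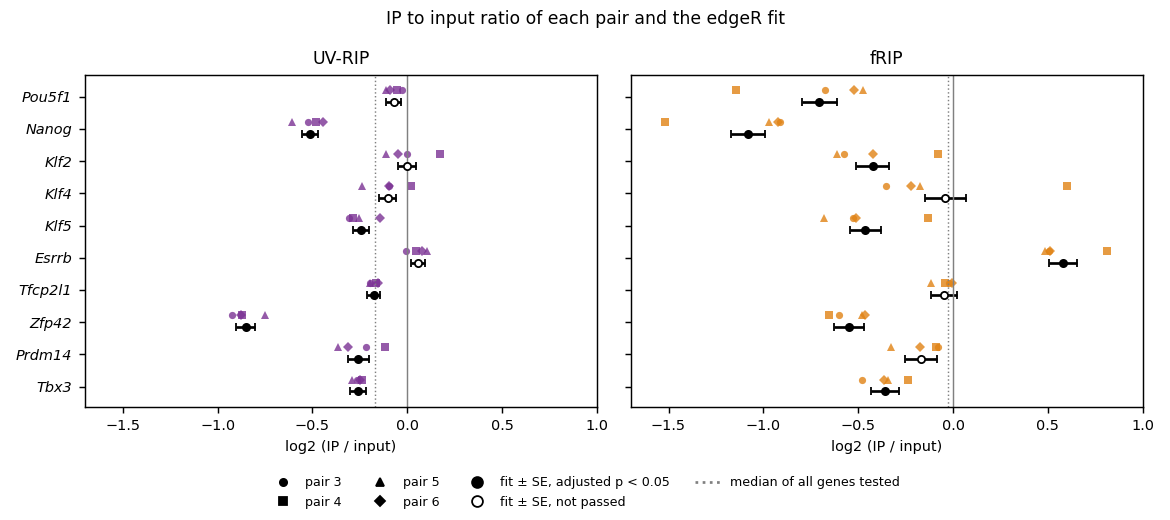
IP to input ratio of the 10 genes on the log2 scale in UV-RIP (left) and fRIP (right). Coloured markers are the 4 pairs, black circles the edgeR fit with its standard error, filled where the adjusted p was below 0.05, and the dotted line is the median of all genes tested. Zfp42 and Nanog lie left of the others in UV-RIP, and in fRIP the fits run from Nanog at -1.08 to Esrrb at 0.58, with replicate 4 away from the other pairs for Pou5f1, Nanog, Klf2, Klf4, Klf5 and Esrrb.

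In fRIP as a whole, 1 member passed as higher in the IP (Esrrb) and 6 as lower: Nanog, Pou5f1, Zfp42, Klf5, Klf2 and Tbx3. Of all genes tested, 17.6% passed as higher and 21.9% as lower. The members had a median log2 ratio of -0.39, beside -0.03 for all genes tested. Nanog and Pou5f1 were depleted by more than 1.5-fold, which 10.7% of all genes tested were, and no member was enriched by that fold, which 8.8% were. Klf4, Tfcp2l1 and Prdm14 did not pass. Without replicate 4, Klf4 and Prdm14 passed as well and 8 members were lower. Of all genes, 5451 were then lower, beside 5018 with every replicate. With the GC trend removed Prdm14 passed (adjusted p = 0.0283) and Klf2, at -0.62, was depleted over 1.5-fold too. With the length trend removed Tfcp2l1 passed at -0.16 (adjusted p = 0.00573) and Klf2, at -0.01, lost its call (adjusted p = 0.941). Pou5f1, at -0.36 in that setting, was no longer depleted over 1.5-fold.

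The IP to input ratio was then compared between the crosslinkers by an interaction term over all 16 libraries. It was lower in fRIP for Pou5f1, Nanog and Klf2 and higher in fRIP for Esrrb and Zfp42, while Klf4, Klf5, Tfcp2l1, Prdm14 and Tbx3 did not pass. Of all genes tested, 8.07% passed as lower and 18.6% as higher. The UV-RIP log2 ratio subtracted from that of fRIP gave -0.63 for Pou5f1 (standard error 0.11, adjusted p = 4.96e-05), -0.57 for Nanog (standard error 0.10, adjusted p = 0.000146) and -0.42 for Klf2 (standard error 0.10, adjusted p = 0.00256) by edgeR. For Esrrb it was 0.52 (standard error 0.08, adjusted p = 2.11e-05), and for Zfp42 0.31 (standard error 0.09, adjusted p = 0.0103) by edgeR. All genes tested had a median difference of 0.15, and under TMM factors, where that median was 0.03, the value for Zfp42 was 0.19 and did not pass (adjusted p = 0.124). Zfp42 was therefore lower in the IP of both, and whether it was less so in fRIP depends on the scaling. With the length trend removed Klf2 was at -0.24 and did not pass (adjusted p = 0.116), Klf5 passed at -0.25 (adjusted p = 0.0279), and Esrrb was at 0.10 and did not pass (adjusted p = 0.127). Only Pou5f1 differed by more than 1.5-fold, and of all genes tested 2.69% were lower and 7.87% higher by that fold. Without the fRIP libraries of replicate 4 no member did, and Klf5 then passed at -0.32 (adjusted p = 7.67e-06, edgeR). Without the replicate block Nanog passed 1.5-fold too, and no call of the test itself changed among the members.

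**Figure D3:**
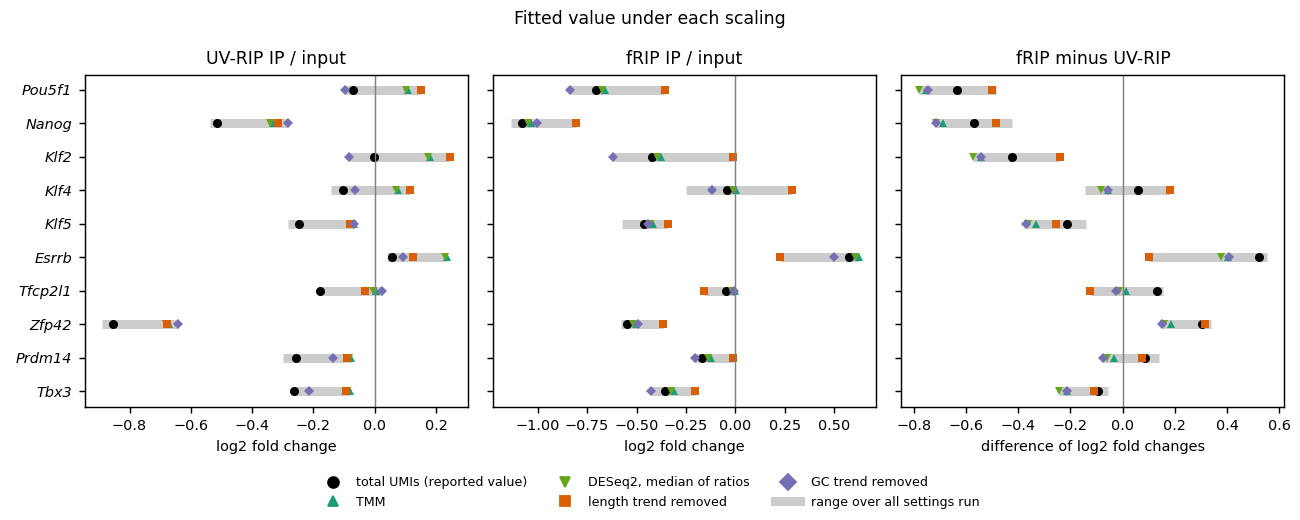
Fitted log2 ratio of the 10 genes in UV-RIP and fRIP, and the difference between them (x axes). Black circles are the values with total UMIs as library size, coloured markers 4 other scalings, and grey bars the range over all settings run. Nanog and Zfp42 stay left of 0 in UV-RIP and fRIP under every setting, while Pou5f1, Klf2, Klf4 and Tfcp2l1 cross 0 in UV-RIP.

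The inputs themselves differed between the crosslinkers, which bears on the levels behind these ratios. Of the 10 members, 8 were higher in the fRIP input than in the UV-RIP input in a fit without a block, and 0 were lower by edgeR, also by DESeq2 and at an unadjusted p below 0.05. Of all genes tested, 20.2% passed as higher and 17% as lower. The members had a median log2 ratio of 0.86, beside 0.03 for all genes tested. Other lists were also higher in the fRIP input, with 10 of 12 LIF and STAT3 pathway genes, 12 of 20 further pluripotency genes, 7 of 12 formative and primed genes, 5 of 8 primitive endoderm markers and 4 of 6 trophoblast markers passing as higher, and list medians of 0.49, 0.39, 0.60, 0.61 and 1.05. Of the beta-catenin and TCF genes 3 were higher and 4 lower. Among the members the difference was largest for Nanog at 1.26 (adjusted p = 6.94e-07) and Pou5f1 at 1.21 (adjusted p = 1.45e-06), followed by Klf4 at 1.10, Tfcp2l1 at 0.97, Tbx3 at 0.87 and Klf2 at 0.84, and all 6 passed 1.5-fold, as 10.6% of all genes tested did in that direction and 9.44% in the other. For these 6 genes and Klf5, at 0.57, every fRIP input was above every UV-RIP input. Esrrb passed at 0.19 (adjusted p = 0.0415) although its inputs overlapped, and 11 of 17 alternatives lost this call, among them the replicate block (adjusted p = 0.0721), TMM factors (adjusted p = 0.0503) and the removal of Gm26917 and Gm42418 from the library sizes (0.091, adjusted p = 0.343). Prdm14 at 0.07 and Zfp42 at -0.03 did not pass. In CPM the fRIP IP of Nanog, at 221 ± 8.94 (SD, n = 4), thus stood above its UV-RIP IP at 139 ± 9.14 (SD, n = 4), although its ratio to the input was lower in fRIP.

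Gene length and base composition moved with the ratios across all genes, and the members followed part of this. Over the 10208 genes whose mean reached 100 UMIs, the fRIP log2 ratio had a Spearman correlation of 0.57 with gene body length, and the UV-RIP value had 0.56 with the GC content of the longest transcript. The difference between the crosslinkers had 0.61 with gene body length, and 0.66 over the 10 members. These are descriptions across genes that share libraries. Over the 10 members the rank correlation with GC content in UV-RIP was 0.83. Nanog, Zfp42, Tfcp2l1 and Klf5 had the lowest GC content, 45.8% to 47.9%, and all were among those lower in the UV-RIP IP. In fRIP the correlation with length over the members was 0.49. Esrrb, with a body of 160512 bases, was the longest and the highest, but Klf2, the shortest, was not the lowest. With the length trend removed, Nanog was still lower in fRIP at -0.81 and Pou5f1 at -0.36, Esrrb was still higher at 0.22, and the difference between the crosslinkers for Esrrb shrank from 0.52 to 0.10 and no longer passed (adjusted p = 0.127, edgeR). With the GC trend removed, Zfp42 and Nanog were still lower in UV-RIP, at -0.64 and -0.28.

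**Figure D4:**
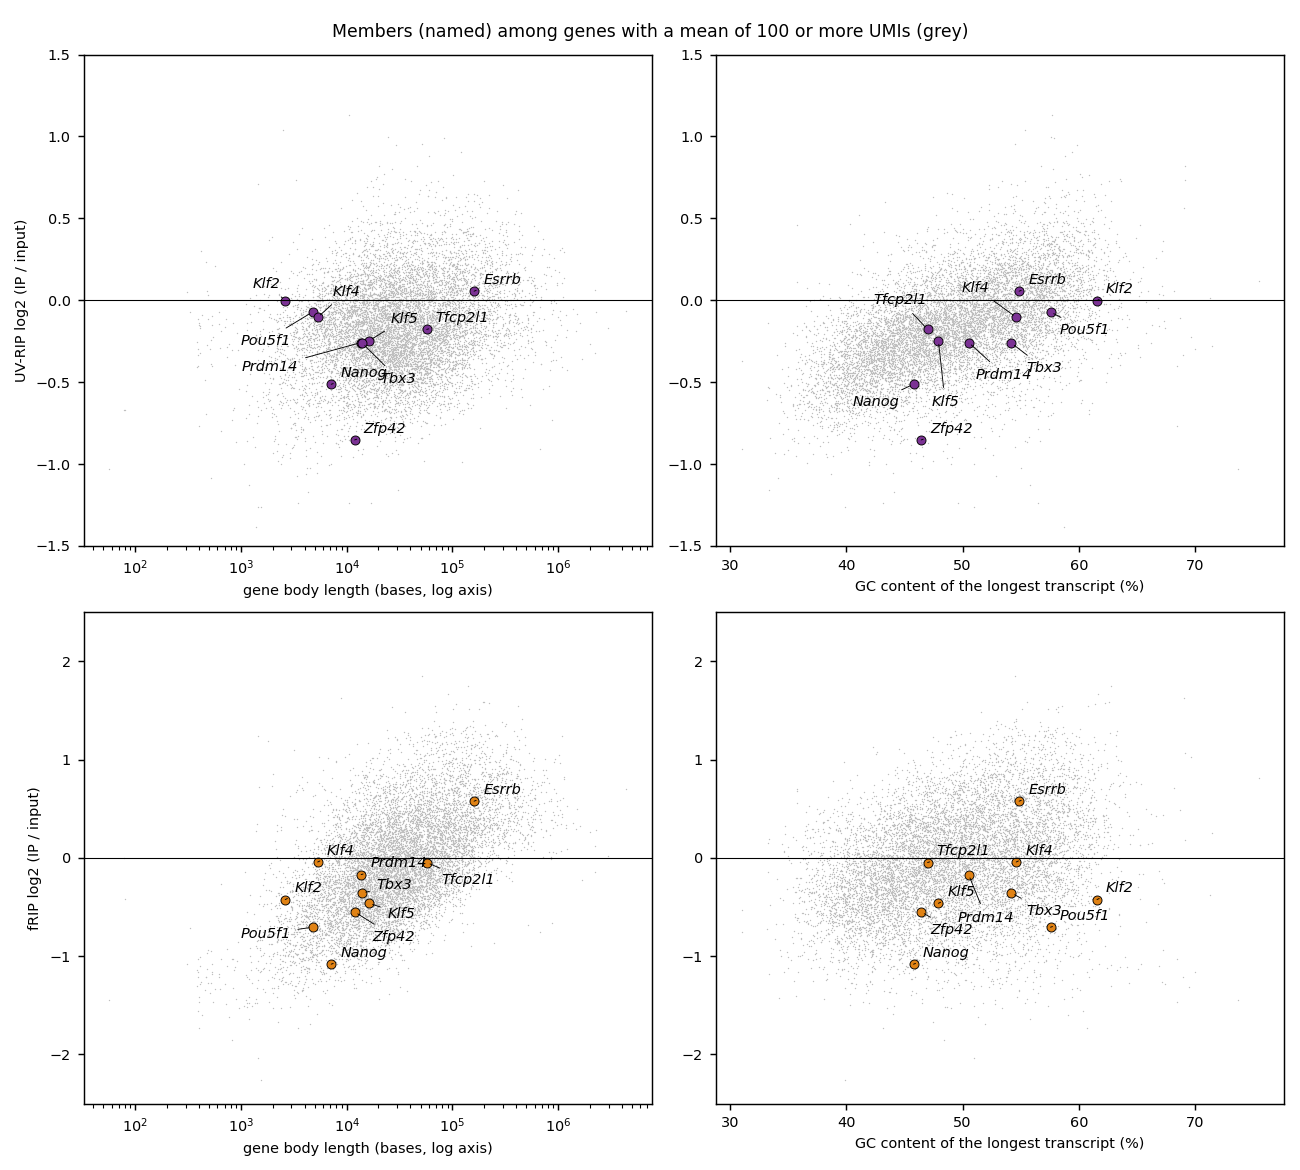
IP to input log2 ratio (y axis) against gene body length (left, log axis) and GC content of the longest transcript (right) in UV-RIP (top) and fRIP (bottom). Grey points are the genes whose mean reached 100 UMIs, of which 11 lie beyond the y axis in each row, and the 10 named genes are coloured. In UV-RIP, Zfp42 lies low among genes of its GC content, and in fRIP, Nanog lies low among genes of its length. With the length trend removed, the fRIP values were -0.81 for Nanog and 0.22 for Esrrb.

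Other genes of the same network were read beside the members. Of 20 further pluripotency-associated genes, 14 were lower and none higher in UV-RIP, and 17 were lower and 2 higher in fRIP, with medians of -0.20 and -0.60. Over all genes tested, 29% were lower and 6.6% higher in UV-RIP, with a median of -0.17, and 21.9% were lower and 17.6% higher in fRIP, with a median of -0.03. Among those with a mean of at least 100 UMIs, the lowest in UV-RIP was Dppa4, a chromatin-associated factor of early embryos, at -0.78 (adjusted p = 6.91e-51). In fRIP the lowest was Dppa5a at -1.19 (adjusted p = 1.2e-07), and the highest was Mybl2, a cell cycle transcription factor, at 0.44 (adjusted p = 2.94e-05, all edgeR). Most genes of this list were thus lower in the fRIP IP, as Nanog and Pou5f1 were.

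The signalling pathways behind the members were counted in the same way. Beside them stand the shares of all genes tested, 29% lower and 6.6% higher in UV-RIP and 21.9% lower and 17.6% higher in fRIP, and nothing particular to a list is read from its count. Of 12 genes of the LIF and STAT3 pathway, 1 was higher and 3 were lower in UV-RIP, and 1 was higher and 4 were lower in fRIP. Jak2, the receptor-associated kinase, was highest in UV-RIP at 0.40 and Pim1, a STAT3 target, lowest at -0.32, while in fRIP Ptpn11, a phosphatase, was highest at 0.31 and Socs3, the feedback inhibitor, lowest at -0.48. Of 10 genes of the beta-catenin and TCF pathway, 5 were higher and 3 lower in UV-RIP, and 6 were higher and 1 lower in fRIP, with a fRIP median of 0.35. Tcf7l1, the repressor that acts on Esrrb, was the highest of them in fRIP at 1.14 (adjusted p = 2.53e-10), and Ctnnb1, which encodes beta-catenin, was the lowest at -0.20 (adjusted p = 0.0398). In UV-RIP the highest was Tcf7 at 0.59 and the lowest Gsk3b at -0.36. Of 12 formative and primed genes, 1 was higher and 4 were lower in UV-RIP, and 1 was higher and 6 were lower in fRIP. The highest was Dnmt3a at 0.21 in UV-RIP and Cdh2 at 0.38 in fRIP, and Sox4 was the lowest in both at -0.47 and -0.81. Every value named for these 3 lists passed edgeR's test. Among markers of other cell types, Lama1 was higher in the IP by 0.42 in UV-RIP and 0.43 in fRIP on the log2 scale, and Tfap2c fell by 0.18 and 0.28.

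The gene most like each member over the 16 libraries was found by Pearson's r of log2(CPM + 0.5) among 10208 genes. It was Hsp90aa1 for Nanog (r = 0.995), Prmt5 for Pou5f1 (r = 0.996), Gatad2a for Esrrb (r = 0.991) and Psmd11 for Zfp42 (r = 0.987). For Klf2 it was Lrrc59, for Klf4 Gprc5c, for Klf5 Rfk, for Tfcp2l1 Kif1b and for Tbx3 Spry2, with r between 0.965 and 0.992. Prdm14 had the least close gene, Ska3, at 0.919. The libraries fall into the 4 groups, so these values follow the differences between groups, and the genes were chosen as the highest of many.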

How the data were processed

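Sequenced RNA of Sox2 IP and input libraries came from male mESC crosslinked with UV or formaldehyde. The authors mapped reads with STAR to mm10 (GRCm38), kept uniquely mapped reads, and deposited raw UMI counts for gene bodies of GENCODE vM16. Tool versions and the strand setting are not given in the sources used here.

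IP was compared with input in each crosslinker by edgeR 4.0.16 in R 4.3.3 (quasi-likelihood test, replicate number as a block, total UMIs as library size) over the 22936 genes that reached 3 UMIs in any of 16 libraries. Adjusted p is by Benjamini-Hochberg, with 0.05 as the limit, and enriched or depleted also means over 1.5-fold. The difference between crosslinkers was an interaction term with plate as a block. Inputs were compared without a block. Alternatives changed one choice at a time, except that DESeq2 1.42.0 with median-of-ratios size factors changed tool and scaling together (DESeq2 with total UMIs was also run), and removal of a length or GC trend also recentred all genes near 0, so that trend and scaling changed together.

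The members and gene lists were chosen with earlier results of these data known. Besides the members, the text names the highest and lowest gene of each list with a mean of 100 or more UMIs, the gene closest to each member, Sox2, Gm26917 and Gm42418. Sox2ot, Gm19553, Tbx3os1, Nanog-ps1 and Nanog-ps2 were named after their values were seen. IP and input of a number come from the same lysate, and their deviations from group means correlated at 0.029 to 0.44 in UV-RIP and 0.11 to 0.60 in fRIP. Replicates differed by more than sampling noise (chi-square at least 1.72 per degree of freedom). The study calls its replicates biological. Coordinates are from GENCODE vM21 by gene identifier and version. In data simulated with 200 genes changed 2-fold, each with a mean of 100 or more UMIs, 99.5% to 100% were recovered, with 6 to 14 false calls. Recovery of smaller changes was not tested.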

Additional observations from a re-analysis of the deposited data

Results flagged for a closer look

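A single value stood well away from its group in 5 of the 60 sets of 4 values examined, where about 1 in 20 would do so by chance. Of these, 4 involve the fRIP input of replicate 4. There Klf4 had 121 CPM against 205 to 220 in the other inputs, and Esrrb had 681 CPM against 815 to 831. As log2 ratio of IP to input, that replicate had -1.52 for Nanog against -0.97 to -0.91, and 0.81 for Esrrb against 0.49 to 0.51. In the UV-RIP IP, Tbx3 had 116 CPM in replicate 4 against 126 to 128 in the others. The cause of these values was not tested.

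The IP to input ratio of 5 members differed between the crosslinkers by the interaction test in edgeR. The UV-RIP log2 ratio subtracted from that of fRIP gave -0.63 for Pou5f1, -0.57 for Nanog and -0.42 for Klf2, against 0.52 for Esrrb and 0.31 for Zfp42. Crosslinker and plates cannot be told apart here.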

How the results depend on the processing

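In UV-RIP and fRIP, each of the 14 alternatives left Nanog and Zfp42 with the direction and call given above. For the results that changed, the cause was not tested. In UV-RIP, 0 members were higher and 6 lower, and these became 3 and 2 under TMM factors, 2 and 2 with median-of-ratios size factors in DESeq2, and 4 and 3 with the length trend removed. All genes moved likewise, from 1514 higher and 6640 lower to 3724 and 3400, 2360 and 2239, and 3493 and 3873 in the same order. Without Gm26917 and Gm42418 in the library sizes 2 members were higher and 4 lower, beside 3327 and 3866 of all genes. With the GC trend removed 1 was higher and 5 lower, beside 2960 and 3057 of all genes. Under TMM factors the UV-RIP value turned to 0.11 for Pou5f1, 0.18 for Klf2, 0.077 for Klf4 and 0.0033 for Tfcp2l1. Pou5f1, Klf2 and Klf4 were at 0.082, 0.15 and 0.049 without Gm26917 and Gm42418, at 0.10, 0.17 and 0.069 with median-of-ratios, and at 0.15, 0.25 and 0.11 with the length trend removed. With the GC trend removed Tfcp2l1 was at 0.022, and Pou5f1 passed as lower at -0.097. Klf2, at -0.0016, was at 0.00024 with DESeq2 and total UMIs and at 0.00054 in the joint fit over 16 libraries, and between -0.055 and 0.037 with a replicate left out.

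In fRIP, the 0 members enriched over 1.5-fold became 1 (Esrrb) under TMM factors, with median-of-ratios and without Gm26917 and Gm42418, and the 2 depleted became 1 with the length trend removed and 3 with the GC trend removed, where Klf2 was at -0.62. Over all genes, the 2018 enriched became 2280, 1768 and 2107 in the same order. The 2448 depleted became 1404 with the length trend removed and 2128 with the GC trend removed. Prdm14 passed as lower with the GC trend removed and in the joint fit over 16 libraries, and Tfcp2l1 passed at -0.16 with the length trend removed. With a replicate left out, 0 to 1 members were enriched and 1 to 2 depleted, beside 1790 to 2040 and 2159 to 2584 of all genes. Klf4 turned to 0.0058 and Tfcp2l1 to 0.00018 under TMM factors, Klf4 was at 0.29 with the length trend removed, and with a replicate left out it lay between -0.25 and 0.065.

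For the difference between crosslinkers, the 2 members higher and 3 lower became 1 and 5 under TMM factors, median-of-ratios, without Gm26917 and Gm42418 and with the GC trend removed, where Klf5 and Tbx3 joined the lower ones and Zfp42 was lost. Over all genes, the 4264 higher and 1852 lower became 3062 and 2810, 2138 and 2391, 2863 and 2955, and 3080 and 3016 in the same order. With the length trend removed Esrrb and Klf2 were lost and Klf5 gained, which left 1 higher (Zfp42) and 3 lower. The 1 member lower by over 1.5-fold became 2 under those 4 settings and without the replicate block, and 0 with the length trend removed. It was 0 to 2 with a replicate left out. Klf4 and Prdm14 turned to -0.057 and -0.032 under TMM factors. Klf4, Tfcp2l1 and Prdm14 were at -0.074, -0.0031 and -0.048 without Gm26917 and Gm42418, at -0.084, -0.016 and -0.061 with median-of-ratios and at -0.054, -0.024 and -0.075 with the GC trend removed. Tfcp2l1 was at -0.12 with the length trend removed, and Klf4 lay between -0.15 and 0.17 with a replicate left out.

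Between the inputs, Prdm14 turned to -0.030 without Gm26917 and Gm42418 and to -0.036 with the length trend removed, and Zfp42 to 0.0055 with the GC trend removed. Leaving out the replicate block changed no call of the test among the members in UV-RIP, fRIP or their difference, and between the inputs 11 of 17 alternatives lost the call of Esrrb, the replicate block among them (0.19), with the lowest value of 0.041 when the GC trend was removed. Per kb of merged exons, 8 members had another rank in the UV-RIP input than per kb of gene body, and 9 in the fRIP input. Depth limits Prdm14 most, with 469 UMIs in its shallowest library.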
